A study of Homo sapiens with 9 samples.

Results

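Metallothioneins are small, cysteine-rich proteins that bind zinc and copper, and the genes described here are 8 of them (MT1E, MT1F, MT1G, MT1H, MT1M, MT1X, MT2A and MT3), the zinc-sensing transcription factor MTF1 and the zinc exporter SLC30A1. The genes were listed by name, and every probe set annotated to exactly 1 of these symbols was taken, which gave 18 of the 54613 probe sets tested and 10 of the 19775 genes that have such a probe set. All 18 were tested, since no filter on low values was applied. The arrays measured RNA from H69, an established human small cell lung cancer line that grows as neuroendocrine cells in suspension. The 9 arrays form groups of 3, compared after 24 h of treatment. One group received 100 nM PIK75, a kinase inhibitor made against the PI3K p110 alpha isoform. Another received TGX221, an inhibitor made against p110 beta, at a dose that the labels give as 1 mM, a unit that could not be checked from the files and may be misprinted. The control group received the solvent DMSO, although the treatment entry of the control labels reads none. All arrays come from 1 cell line, and the labels do not say whether replicates are separate cultures, so the p-values measure the spread between these samples, which may be technical.

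In the cell, MTF1 is activated by free zinc, enters the nucleus and binds short DNA sequences called metal response elements. Its best known targets are the metallothionein genes, whose products hold zinc in the cytoplasm, and SLC30A1, which pumps zinc out through the plasma membrane. Metallothionein transcripts also respond to cadmium, copper, oxidants and glucocorticoids. MT3 is a brain-enriched member known for responding poorly to metals. The MT genes other than MT1HL1 described here lie in 1 cluster on chromosome 16, where the RefSeq annotation lists 16 metallothionein loci, 11 of them protein coding, including the 8 studied.

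Of the listed genes, 5 had an upstream sequence to hand, and all 5 rose with PIK75. The sequences of 4 are shown, and that of MTF1, which held 0 matches, is not. The 4 sequences shown differ in the number of metal response element cores. Each is the 250 bases before the annotated start, from RefSeq on GRCh38.p14, written 5′ to 3′ on the strand of the gene. Capitals mark each match to TGCACNC or TGCGCNC, on either strand. These 7-base motifs had no overlapping matches here.
MT1H, chr16:56669564-56669813 (plus strand): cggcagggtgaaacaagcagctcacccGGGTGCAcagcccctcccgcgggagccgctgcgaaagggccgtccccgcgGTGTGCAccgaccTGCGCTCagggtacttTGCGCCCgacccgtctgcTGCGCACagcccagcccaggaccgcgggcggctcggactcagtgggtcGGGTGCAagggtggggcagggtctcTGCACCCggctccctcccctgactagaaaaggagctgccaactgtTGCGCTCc
MT2A, chr16:56608334-56608583 (plus strand): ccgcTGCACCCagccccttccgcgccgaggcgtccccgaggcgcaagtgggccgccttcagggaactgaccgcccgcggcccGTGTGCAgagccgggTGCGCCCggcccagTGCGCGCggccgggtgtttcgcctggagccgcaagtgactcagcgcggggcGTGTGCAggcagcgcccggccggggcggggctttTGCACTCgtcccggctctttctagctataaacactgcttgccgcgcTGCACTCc
MT1X, chr16:56682220-56682469 (plus strand): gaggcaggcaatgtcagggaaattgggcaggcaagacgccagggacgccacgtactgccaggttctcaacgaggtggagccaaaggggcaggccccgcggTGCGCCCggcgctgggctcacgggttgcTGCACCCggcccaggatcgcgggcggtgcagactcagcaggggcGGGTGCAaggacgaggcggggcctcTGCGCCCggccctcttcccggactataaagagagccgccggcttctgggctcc
SLC30A1, chr1:211579162-211579411 (minus strand): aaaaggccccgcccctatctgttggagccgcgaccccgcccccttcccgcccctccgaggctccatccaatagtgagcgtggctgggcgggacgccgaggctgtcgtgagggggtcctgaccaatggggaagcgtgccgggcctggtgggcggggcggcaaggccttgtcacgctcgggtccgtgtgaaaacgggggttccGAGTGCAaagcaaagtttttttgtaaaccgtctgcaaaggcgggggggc

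MT1H held 8 matches, 5 on the gene's strand and 3 on the other, and MT2A held 7, of which 5 were on the gene's strand and 2 on the other. MT1X held 4, with 3 on the gene's strand and 1 on the other. SLC30A1 held 1, on the other strand, 49 to 43 bases before the start, and MTF1 held 0. Among all 35116 upstream sequences of this length in the table, 0.0171% (6) had at least 8 matches, 0.0313% (11) at least 7 and 0.37% (130) at least 4. A single match is common, with 24.8% (8719) holding at least 1. These shares were not matched for base composition. The table held entries for 5 of the 10 genes. A match is a description of these letters and not a measured binding site.

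**Figure D1:**
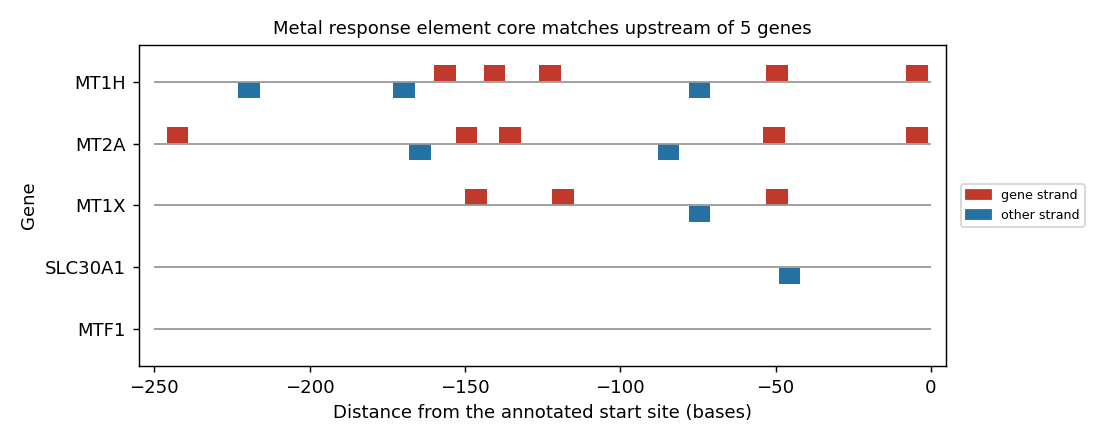
Matches to the metal response element core (boxes, above the line on the gene's strand and below it on the other) over the 250 bases before the start of 5 genes. MT1H has 8 boxes, MT2A 7, MT1X 4, SLC30A1 1 and MTF1 0.

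With PIK75, probe sets of all 3 roles rose: metallothioneins that hold zinc, the sensor MTF1 and the exporter SLC30A1. Of the 18 probe sets, 16 were higher with PIK75 than in control at an adjusted p below 0.05 (limma on all 9 arrays, Benjamini-Hochberg adjustment over all probe sets), and 0 were lower, against 2 that did not pass. PIK75 moved a large part of the transcriptome, so this count needs its background: 30.3% of all probe sets were higher and 19.9% lower in the same comparison. Of the 18 probe sets, 17 were at or above the median brightness, and among all probe sets that bright 34.5% were higher and 32.6% lower. The median change was 0.60 on the log2 scale over the 18, beside 0.084 over all probe sets. In 16 of 18 the PIK75 arrays all lay above the control arrays, which held for 36.2% of all probe sets. Each array measured a whole culture, so a change within every cell and a change in the share of cells with a high level cannot be told apart.

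**Figure D2:**
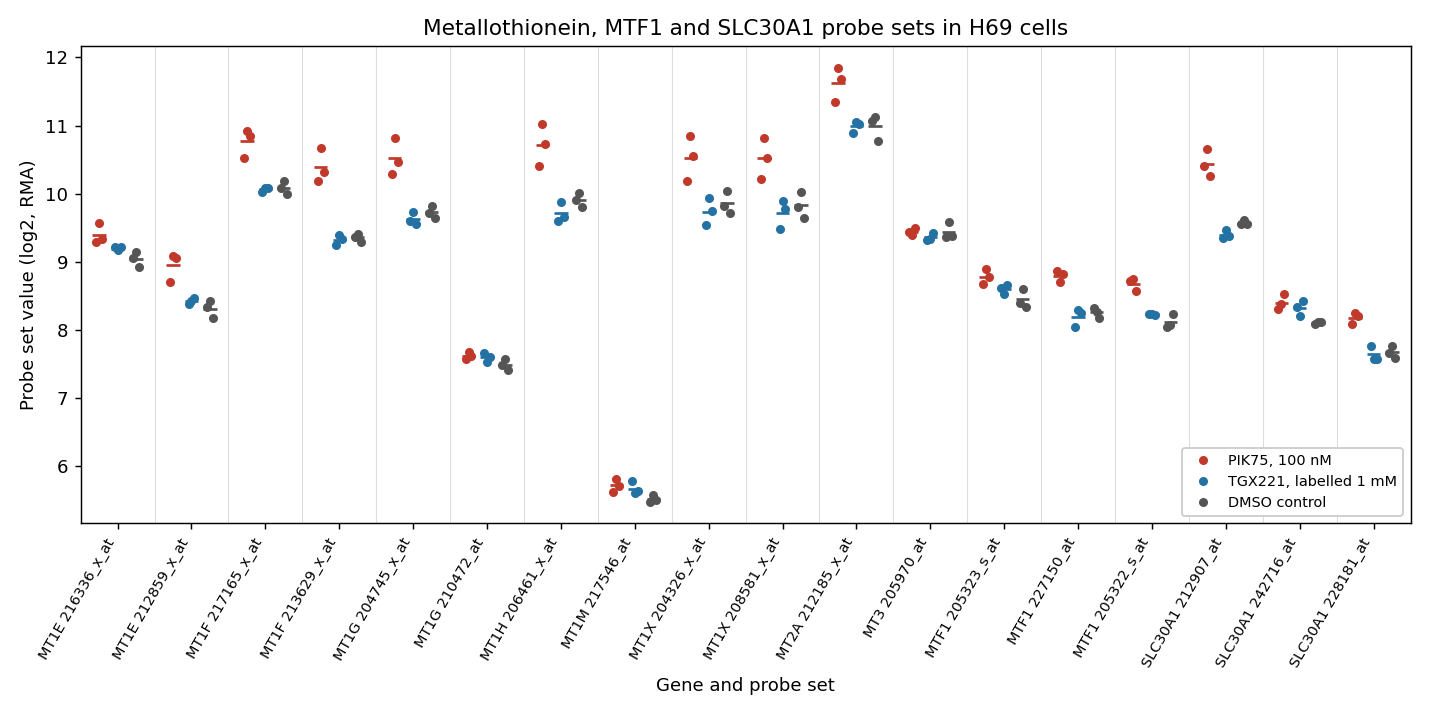
Log2 value of each of the 18 probe sets on every array, with PIK75 (red) left of TGX221 (blue) and DMSO control (grey), and a short bar at each group mean (n = 3). The PIK75 points lie above all control points in 16 of 18 probe sets, and those of MT3 and of MT1G 210472_at overlap the control points.

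The metallothionein effectors are read by 12 probe sets. Of these, 9 have names ending in _x_at, the suffix by which the array's maker marks probe sets with probes that can also match other transcripts. Metallothionein transcripts are close in sequence, so signal of 1 family member can appear under the name of another, and which transcript gave it cannot be told apart on these probe sets. All 9 rose with PIK75, by 0.36 to 1.04 with a median of 0.68. In values for each array below, PIK75 and control arrays are in the order of their label numbers 1, 3 and 5, and TGX221 arrays in the order 2, 3 and 5. All values are log2.

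MT1F showed the largest change of the 18 probe sets. Its probe set 213629_x_at read 10.18, 10.67 and 10.32 on the PIK75 arrays, 9.24, 9.40 and 9.33 on the TGX221 arrays and 9.37, 9.41 and 9.29 on the control arrays. All PIK75 arrays stood above the other 6, and the TGX221 and control arrays overlapped. The change with PIK75 was 1.04 (SE 0.102, 95% interval 0.81 to 1.26), or 2.05-fold, with an adjusted p of 6.21e-06 by limma. The other MT1F probe set, 217165_x_at, read 10.53, 10.92 and 10.85 with PIK75, 10.03, 10.09 and 10.09 with TGX221 and 10.09, 10.18 and 9.99 in control. It rose by 0.68 (SE 0.0903, limma adjusted p 7.48e-05), so both probe sets of the gene gave the same direction.

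MT1H and MT1G, neighbours in the cluster, rose by similar amounts. For MT1H 206461_x_at the PIK75 arrays read 10.40, 11.02 and 10.73, the TGX221 arrays 9.60, 9.88 and 9.66 and the control arrays 9.91, 10.01 and 9.80. This was a 1.76-fold rise with PIK75 (log2 0.81, SE 0.129, limma adjusted p 0.000326), with no overlap between PIK75 and control. For MT1G 204745_x_at the PIK75 arrays read 10.29, 10.82 and 10.47, the TGX221 arrays 9.60, 9.73 and 9.56 and the control arrays 9.72, 9.82 and 9.64, a rise of 0.80 with PIK75 (SE 0.11, limma adjusted p 0.000109). MT1G has a second probe set without the suffix, 210472_at, which read 7.57, 7.67 and 7.61 with PIK75, 7.66, 7.53 and 7.60 with TGX221 and 7.48, 7.57 and 7.41 in control. There the PIK75 and control arrays overlapped. Its difference of 0.13 had a 95% interval of -0.00276 to 0.26 and did not pass (limma adjusted p 0.0932), so the 2 probe sets of MT1G give different calls. How much of the first one's signal comes from other family members was not tested.

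MT2A, usually the most abundant metallothionein transcript in human cells, read 11.35, 11.85 and 11.69 with PIK75, 10.89, 11.05 and 11.02 with TGX221 and 11.06, 11.13 and 10.78 in control (212185_x_at). The PIK75 arrays stood above all others, and the means were 11.63 ± 0.258 with PIK75, 10.99 ± 0.0851 with TGX221 and 10.99 ± 0.183 in control (SD, n = 3 each). The rise with PIK75 was 1.56-fold (log2 0.64, SE 0.119, limma adjusted p 0.00105).

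MT1X has 2 probe sets that behaved alike. On 208581_x_at the PIK75 arrays read 10.21, 10.82 and 10.53, the TGX221 arrays 9.48, 9.89 and 9.77 and the control arrays 9.81, 10.02 and 9.65, a rise of 0.69 (SE 0.148, limma adjusted p 0.00257). The PIK75 array numbered 1 was only a little above the highest control array. On 204326_x_at the rise was 0.67 (SE 0.147, limma adjusted p 0.00309), with PIK75 arrays at 10.18, 10.84 and 10.56, TGX221 arrays at 9.54, 9.93 and 9.74 and control arrays at 9.82, 10.04 and 9.72. The accession that the platform annotation lists for 204326_x_at belongs in the RefSeq table to MT1L, a transcribed pseudogene of the cluster.

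MT1E gave the smallest rise among the 9 on 216336_x_at, where the PIK75 arrays read 9.29, 9.57 and 9.34, the TGX221 arrays 9.21, 9.17 and 9.21 and the control arrays 9.05, 9.15 and 8.93. The change with PIK75 was 0.36 (SE 0.0778, limma adjusted p 0.00269). Its other probe set 212859_x_at read 8.71, 9.09 and 9.06 with PIK75, 8.38, 8.42 and 8.47 with TGX221 and 8.33, 8.43 and 8.17 in control, a rise of 0.65 with PIK75 (SE 0.0961, limma adjusted p 0.000193). On both, all PIK75 arrays lay above all control arrays.

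The 3 metallothionein probe sets without the suffix had a median change of 0.13, and 1 of the 3 passed. That one, MT1M 217546_at, was the dimmest of the 18, at 5.62, 5.81 and 5.71 with PIK75, 5.78, 5.60 and 5.63 with TGX221 and 5.48, 5.58 and 5.51 in control. Its change with PIK75 was 0.19 (SE 0.0671, limma adjusted p 0.0333), and the call was lost without any 1 of 4 arrays: at control 1 left out the adjusted p was 0.0978, at control 5 0.0828, at PIK75 3 0.125 and at PIK75 5 0.0647. MT3 did not follow the rise of the MT1 and MT2 _x_at probe sets. It is read only by a probe set without that suffix, so gene and type of probe set cannot be told apart. Its probe set 205970_at read 9.43, 9.40 and 9.49 with PIK75, 9.32, 9.34 and 9.42 with TGX221 and 9.37, 9.58 and 9.38 in control, with the groups overlapping. The difference between PIK75 and control was -0.00278, with a 95% interval of -0.14 to 0.14 (limma adjusted p 0.974).

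**Figure D3:**
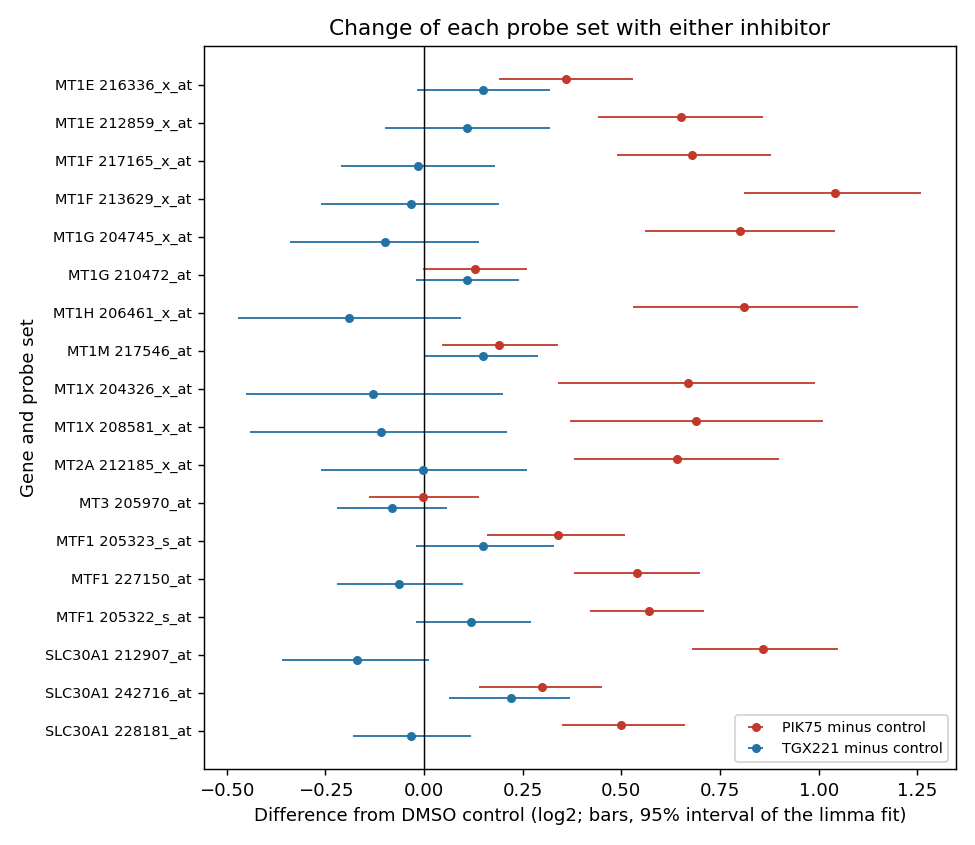
Difference from DMSO control of each probe set on the log2 scale for PIK75 (red, upper) and TGX221 (blue, lower), with 95% intervals of the limma fit over 9 arrays. The PIK75 changes of the _x_at metallothionein probe sets run from 0.36 to 1.04, and that of MT3 is -0.00278.

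MTF1, the sensor of the system, rose on all 3 of its probe sets with a median of 0.54. On 205322_s_at the PIK75 arrays read 8.72, 8.74 and 8.57, the TGX221 arrays 8.24, 8.23 and 8.22 and the control arrays 8.04, 8.07 and 8.23, a change of 0.57 with PIK75 (SE 0.0653, limma adjusted p 2.51e-05). On 227150_at the PIK75 arrays read 8.86, 8.71 and 8.82, the TGX221 arrays 8.04, 8.29 and 8.25 and the control arrays 8.32, 8.27 and 8.17, a change of 0.54 (SE 0.0738, limma adjusted p 0.000101). The third, 205323_s_at, read 8.67, 8.90 and 8.78 with PIK75, 8.61, 8.53 and 8.66 with TGX221 and 8.40, 8.60 and 8.33 in control. It rose by 0.34 with PIK75 (SE 0.0795, limma adjusted p 0.00452). In folds, MTF1 rose 1.26-fold to 1.48-fold, and PIK75 and control arrays did not overlap on any of the 3. The suffix _s_at marks probe sets shared by several transcripts, usually of 1 gene.

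SLC30A1, the plasma membrane exporter, also rose on all 3 of its probe sets, with a median of 0.50. The brightest, 212907_at, read 10.40, 10.65 and 10.26 with PIK75, 9.35, 9.47 and 9.38 with TGX221 and 9.55, 9.61 and 9.55 in control. Here the 3 groups did not overlap, with PIK75 highest and TGX221 lowest. The change with PIK75 was 0.86 (SE 0.085, 95% interval 0.68 to 1.05), or 1.82-fold, with a limma adjusted p of 6.43e-06. On 228181_at the PIK75 arrays read 8.09, 8.25 and 8.20, the TGX221 arrays 7.76, 7.58 and 7.58 and the control arrays 7.66, 7.76 and 7.59, a rise of 0.50 (SE 0.0698, limma adjusted p 0.00011). On 242716_at the arrays read 8.30, 8.38 and 8.52 with PIK75, 8.33, 8.20 and 8.43 with TGX221 and 8.08, 8.11 and 8.12 in control, a rise of 0.30 with PIK75 (SE 0.0708, limma adjusted p 0.00473). SLC30A1 and MTF1 lie outside the metallothionein cluster and 4 of their 6 probe sets carry neither the _x_at nor the _s_at suffix.

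Scaling bears on several of these calls. Centring the arrays on the hybridization spikes, control RNAs added just before hybridization, moved the median PIK75 change of all probe sets to -0.268, against 0.084 as deposited. Of the 18, 11 were then higher and 2, MT3 at -0.35 and MT1G 210472_at at -0.22, were lower. The metallothionein _x_at probe sets kept 8 of 9 calls with a median of 0.33, and MT1E 216336_x_at fell short at 0.0082 (limma adjusted p 0.929). MT1M, MTF1 205323_s_at and SLC30A1 242716_at turned to -0.16, -0.014 and -0.053 without passing. SLC30A1 228181_at lost its call too, at 0.15 (limma adjusted p 0.1), which left 1 of the 3 SLC30A1 probe sets called. With poly-A spikes, control RNAs added before labelling, the median of all probe sets was 0.003 and 14 of 18 were higher. Lost there were SLC30A1 242716_at at 0.22 (limma adjusted p 0.0937) and MT1M at 0.11 (limma adjusted p 0.475). With a measure of RNA length, the 3′ to 5′ difference of actin, in the fit, the same 2 were lost, at 0.21 (limma adjusted p 0.0871) for SLC30A1 242716_at and 0.20 (limma adjusted p 0.11) for MT1M. After cyclic loess MT1M was lost at 0.11 (limma adjusted p 0.213).

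The replicates of a group were spread in much the same way across the metallothionein _x_at probe sets. In all 9 _x_at probe sets PIK75 array 3 was the highest and PIK75 array 1 the lowest of their group, and control array 3 was the highest and control array 5 the lowest of theirs. Among TGX221 arrays, array 3 was the highest in 7 and array 2 the lowest in 7 of the 9. In the 3 metallothionein probe sets without the suffix, PIK75 array 3 was the highest in 2 and control array 3 in 3. There, however, TGX221 array 2 was the highest in 2, and control array 1 was the lowest in 2. The mean of the 9 was 10.13, 10.62 and 10.40 with PIK75, 9.55, 9.73 and 9.65 with TGX221 and 9.68, 9.80 and 9.55 in control. The errors of these 9 values are therefore shared, and the 9 calls are not 9 independent observations. Without PIK75 array 3 the median change of the 9 was 0.58 (range 0.27 to 0.90), and 9 of 9 were still higher. HMOX1, the haem oxygenase that also responds to metals and oxidants, was set beside them after its values were seen. It read 9.31, 10.18 and 9.23 with PIK75, 9.22, 10.40 and 9.94 with TGX221 and 10.22, 10.58 and 9.35 in control, so array 3 was the highest of each group here too. Its difference between PIK75 and control was -0.48 (SE 0.347), which did not pass (limma adjusted p 0.263).

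**Figure D4:**
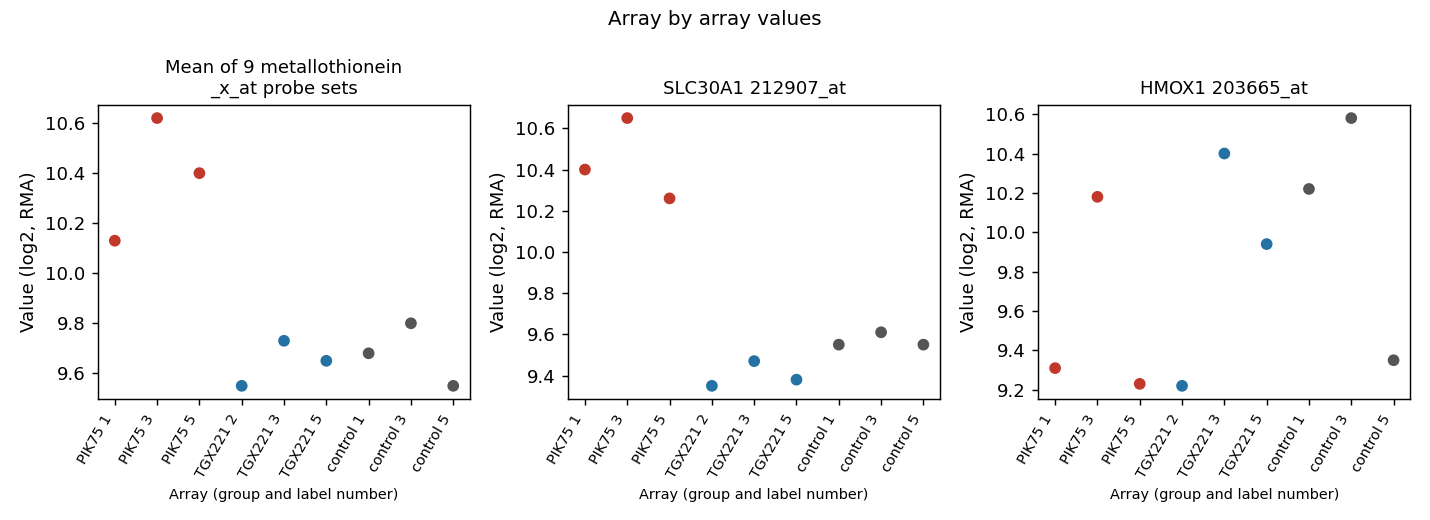
Log2 value on each array of the mean of 9 metallothionein _x_at probe sets (left), of SLC30A1 212907_at (middle) and of HMOX1 203665_at (right), with PIK75 in red, TGX221 in blue and control in grey. Array 3 is the highest of its group in all 3 panels, and the axes do not start at 0. Over the 3 SLC30A1 probe sets, array 3 was highest in 2 with PIK75, 1 with TGX221 and 2 in control.

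With TGX221 the test called no change in these genes. By limma 0 of the 18 probe sets passed, where 0.269% of all probe sets did. Of the 18, 2 (MT1M and SLC30A1 242716_at) had an unadjusted limma p below 0.05. The share of all probe sets at that unadjusted threshold was not counted. The median difference from control was -0.023. TGX221 arrays lay wholly above control in 3 probe sets and wholly below in 1, where 10.9% and 10.7% of all probe sets did so. The count over all probe sets (147) rests on single arrays: it was 959 without TGX221 array 3, 266 without PIK75 array 5, 1 without PIK75 array 1 or PIK75 array 3, and 0 without any of the other 5, while the count among the 18 was 0 in each.

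The intervals say how large a TGX221 effect these arrays leave room for. MT2A differed by -0.00189 (95% interval -0.26 to 0.26) and MT1F 213629_x_at by -0.0341 (-0.26 to 0.19). MT1H, at -0.19, had the widest reach downward (-0.47 to 0.0929), and its limma adjusted p was 0.509. The 2 SLC30A1 probe sets nearest to the threshold pointed in opposite directions: 212907_at was below control on all 3 TGX221 arrays, with a difference of -0.17 (-0.36 to 0.0128, limma adjusted p 0.341), and 242716_at was higher on all 3, by 0.22 (0.0634 to 0.37, limma adjusted p 0.165). MT1M was also above control on all 3 TGX221 arrays, by 0.15 (limma adjusted p 0.302), as was MT1E 216336_x_at, by 0.15 (limma adjusted p 0.362). None of these 4 passed.

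Set directly against each other, PIK75 arrays were higher than TGX221 arrays in 12 of the 18 probe sets at an adjusted p below 0.05 by limma, and lower in 0, where 20.3% of all probe sets were higher and 16.9% lower. The labelled doses differ, and that of TGX221 is uncertain in its unit, so this compares the treatments as given and not the compounds at a matched dose. It shares the PIK75 arrays with the comparison above. The median difference was 0.57, and in 14 of 18 all PIK75 arrays lay above all TGX221 arrays, as in 29% of all probe sets. Of the 9 metallothionein _x_at probe sets 8 passed, of the 3 others 0, of MTF1's 3 probe sets 2 and of SLC30A1's 3 probe sets 2.

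MT1F 213629_x_at was 1.07 higher with PIK75 than with TGX221 (limma adjusted p 5.82e-06), SLC30A1 212907_at 1.04 higher (limma adjusted p 1.71e-06) and MT1H 1.00 higher (limma adjusted p 7.36e-05). MT2A was 0.64 higher (limma adjusted p 0.00125). For MTF1 the differences that passed were 0.60 on 227150_at (limma adjusted p 4.79e-05) and 0.44 on 205322_s_at (limma adjusted p 0.000216), of which the second was lost with hybridization spikes at 0.16 (limma adjusted p 0.0946). Of those that did not pass, MT3 differed by 0.0793 (95% interval -0.06 to 0.22), MT1G 210472_at by 0.0175 (-0.11 to 0.15), MT1M by 0.0436 (-0.10 to 0.19) and SLC30A1 242716_at by 0.0802 (-0.0746 to 0.24). MT1E 216336_x_at, at 0.21 (0.0376 to 0.38, limma adjusted p 0.0547), and MTF1 205323_s_at, at 0.18 (0.00981 to 0.36, limma adjusted p 0.0904), did not pass. Without PIK75 array 1 both passed (limma adjusted p 0.0277 for MT1E and 0.043 for MTF1), which was the 1 alternative in which MTF1 205323_s_at did, while MT1E 216336_x_at passed in 6.

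Outside the listed genes, 2 of 8 further metallothionein loci had a probe set of their own, and both were higher with PIK75. MT1HL1, a locus outside the cluster whose name marks it as MT1H-like, rose by 0.60 (SE 0.0915, limma adjusted p 0.000223), again on an _x_at probe set. It read 10.75, 11.05 and 10.84 with PIK75, 10.12, 10.37 and 10.19 with TGX221 and 10.35, 10.35 and 10.13 in control. MT4, known from squamous epithelia, rose by 0.17 (SE 0.0518, limma adjusted p 0.0169). The MT4 call was lost with poly-A centring, with the actin covariate and without control 1 (limma adjusted p 0.0516), control 3 (0.0572) or PIK75 3 (0.0575), and MT4 was lower at -0.18 (limma adjusted p 0.0311) when centred on hybridization spikes.

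The other zinc transporters moved in both directions with PIK75, those of the family of SLC30A1 included. For these lists each gene is given by its brightest probe set, and 33.3% of all genes were higher and 24.7% lower on that basis. Of the other 9 SLC30A genes, which export zinc or load it into compartments, 3 were higher and 4 lower, with a median of 0.11. SLC30A7, which loads the secretory pathway, fell by 0.61 (SE 0.0961, limma adjusted p 0.000308). It read 8.02, 8.04 and 7.92 with PIK75, 8.18, 8.56 and 8.38 with TGX221 and 8.48, 8.55 and 8.78 in control. SLC30A9, a mitochondrial zinc transporter, fell by 0.44 (SE 0.0564, limma adjusted p 5.54e-05). SLC30A3, known from synaptic vesicles, rose by 0.41 (SE 0.0847, limma adjusted p 0.00205), a call lost with hybridization spikes at 0.057 (limma adjusted p 0.563). SLC30A4 fell by 0.37 (SE 0.0786, limma adjusted p 0.00227), but its 2 other probe sets were higher.

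Of the 14 SLC39A genes, which bring zinc into the cytoplasm, 4 were higher and 4 lower, with a median of 0.039. The plasma membrane importer SLC39A10 averaged 9.08 with PIK75, 9.87 with TGX221 and 9.99 in control, with the highest PIK75 array at 9.17, the lowest TGX221 array at 9.77 and the lowest control array at 9.93. It fell by 0.91 with PIK75 (SE 0.0694, limma adjusted p 7.69e-07), with all PIK75 arrays below all others. SLC39A7, which releases zinc from the endoplasmic reticulum, moved the other way. Its arrays read 10.49, 10.40 and 10.09 with PIK75, 9.47, 9.46 and 9.56 with TGX221 and 9.49, 9.41 and 9.40 in control, a rise of 0.89 (SE 0.0872, limma adjusted p 6.06e-06). SLC39A11 fell by 0.59 (SE 0.0756, limma adjusted p 5.64e-05) and SLC39A4, the importer of the gut, by 0.39 (SE 0.0505, limma adjusted p 6.17e-05). With poly-A centring 1 of the other SLC30A genes was higher and 4 lower. Centred on hybridization spikes, the counts were 0 higher and 6 lower among the other SLC30A genes and 1 higher and 10 lower among the SLC39A genes. That centring moved the median PIK75 change of all probe sets to -0.268, and 38423 of 54613 were called in either direction. The shares of all genes higher or lower under the other scalings were not counted, here or for the lists below. The rescaled counts are therefore no result about the listed genes.

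**Figure D5:**
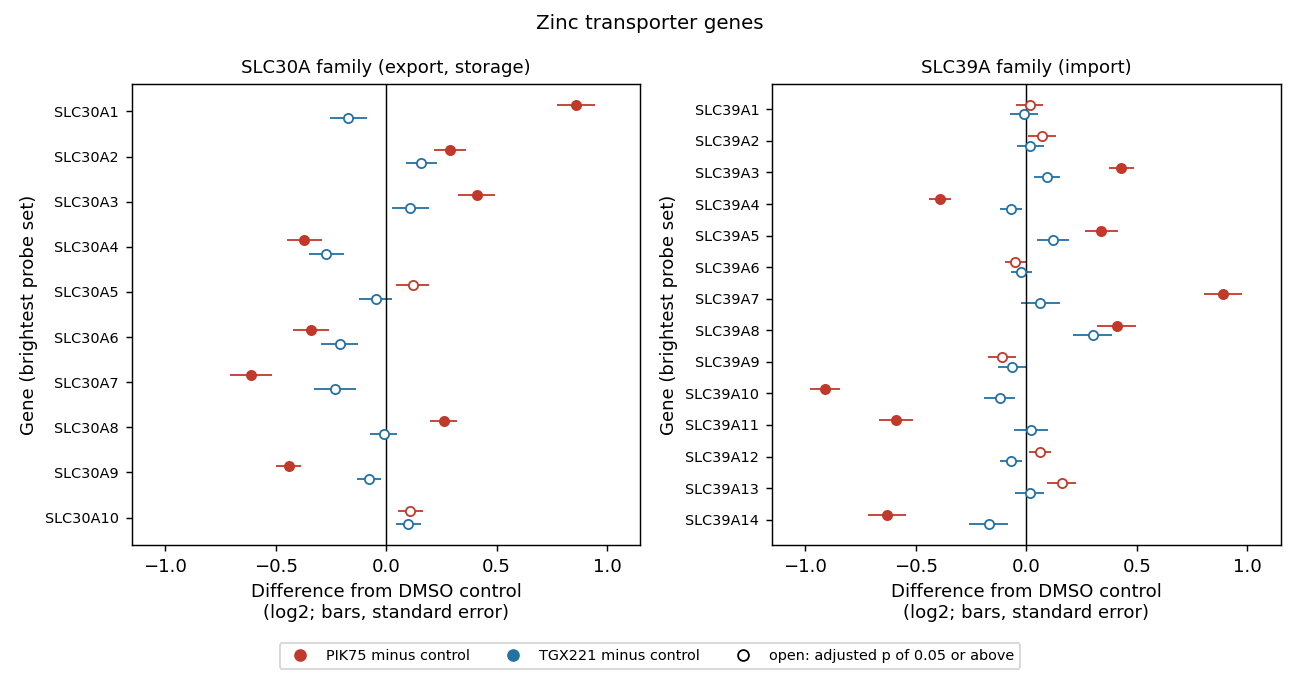
Difference from DMSO control on the log2 scale, with standard errors, of SLC30A genes (left) and SLC39A genes (right) by their brightest probe set, for PIK75 (red) and TGX221 (blue), filled where the limma adjusted p is below 0.05. SLC30A1 is the highest of its family with PIK75 at 0.86, SLC39A7 rises by 0.89 and SLC39A10 lies at -0.91.

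Copper handling and general stress genes also moved in both directions in the values as deposited. Among 13 copper genes 5 were higher and 5 lower with PIK75, with a median of 0.063: COX11, which delivers copper to cytochrome c oxidase, fell by 0.93 (SE 0.077, limma adjusted p 1.58e-06), COMMD1, a factor of copper export, by 0.85 (SE 0.0681, limma adjusted p 1.17e-06) and the copper chaperone ATOX1 by 0.35 (SE 0.0578, limma adjusted p 0.000464). The copper importer SLC31A1 rose by 0.47 (SE 0.0612, limma adjusted p 6.78e-05), a call lost with hybridization spikes at 0.12 (limma adjusted p 0.187). Its 2 other probe sets did not pass in the values as deposited. The copper counts were 1 higher and 5 lower with poly-A centring and 0 higher and 8 lower with hybridization spikes. Of 10 measured genes of the metal and heat shock response, 2 were higher and 4 lower, with a median of -0.28. Those lower were HSPB1, GCLC, GCLM and SLC7A11. HSPA1A, HSPA1B and HSPA8 were listed but had no probe set annotated to their symbol alone. HSPB1, a small heat shock protein, fell by 1.52 (SE 0.0576, limma adjusted p 5.84e-09), to 9.32, 9.35 and 9.20 with PIK75, against 10.84, 10.83 and 10.77 in control. The glutathione synthesis enzyme GCLC fell by 0.67 (SE 0.0591, limma adjusted p 2.43e-06) and the cystine transporter SLC7A11 by 0.57 (SE 0.0655, limma adjusted p 2.49e-05), while the co-chaperone BAG3 rose by 0.42 (SE 0.0508, limma adjusted p 3.39e-05). With hybridization spikes this list had 0 higher and 7 lower, with a median of -0.63 and BAG3 not passing at 0.072 (limma adjusted p 0.362), and after cyclic loess 4 higher and 4 lower.

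Glucocorticoid targets were listed because glucocorticoids raise metallothioneins in many cells. Of 9 measured, 2 were higher and 5 lower with PIK75, with a median of -0.25. CRISPLD2 fell by 0.79 (SE 0.0741, limma adjusted p 4.39e-06), FKBP5, a co-chaperone of the receptor, by 0.67 (SE 0.0822, limma adjusted p 4.18e-05) and ERRFI1 by 0.57 (SE 0.0634, limma adjusted p 1.9e-05). The other CRISPLD2 probe set and the 2 other FKBP5 probe sets did not pass. ZBTB16 rose by 0.30 (SE 0.0582, limma adjusted p 0.00128), a call lost with poly-A centring at 0.22 (limma adjusted p 0.0764). The list then had 0 higher and 5 lower, and with hybridization spikes 0 higher and 7 lower with a median of -0.60. With TGX221, 0 of the 55 genes of these 5 lists passed by limma, where 0.278% of all genes were higher and 0.0455% lower. Of the 55, 9 had an unadjusted limma p below 0.05. The share of all genes at that unadjusted threshold was not counted, so this 9 has no background beside it.

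Profiles over the 9 arrays were compared with the mean of the 7 MT1 and MT2 genes by root mean square difference of centred log2 values. The search covered 17088 genes, with the listed genes and the dimmest genes left out. MT1HL1 was closest at 0.0639, beside 0.0557 for MT2A and 0.0574 for MT1F, which are part of that mean. MT1HL1 is read by an _x_at probe set, and how much of its signal comes from the genes of that mean was not tested. The next were TNFSF13B, a B cell survival cytokine, at 0.0926, the long non-coding RNAs LINC00934 at 0.0958 and LINC00607 at 0.0973, and the transporter ABCB5 at 0.0976. The other genes of that mean stood farther from it than these. MT1X stood at 0.113, MT1G at 0.127, MT1H at 0.17, MT1E at 0.176 and MT1M at 0.259. MTF1 stood at 0.192, SLC30A1 at 0.201 and MT3 at 0.294. These distances describe 9 arrays in 3 groups that share the PIK75 difference.

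Some array measures moved with PIK75. The interquartile range of an array's values was 2.537 to 2.579 with PIK75 and 2.696 to 2.711 in control. With TGX221 it was 2.668 to 2.689. The 3′ minus 5′ difference of the actin probe sets, a sign of RNA length, was 0.467, 0.535 and 1.131 with PIK75, 0.256, 0.415 and 0.325 with TGX221 and 0.239, 0.288 and 0.443 in control. The same difference for GAPDH moved less, at -0.002, 0.023 and 0.078 with PIK75, 0.004, 0.018 and 0.003 with TGX221 and -0.052, -0.005 and 0.013 in control. With the actin difference as a covariate, 14 of the 18 probe sets were still higher with PIK75. The neuroendocrine markers of the line were present, with 8 of 10 measured and array means of 11.29 to 11.34 with PIK75, 11.71 to 11.74 with TGX221 and 11.67 to 11.70 in control. With PIK75 1 of these, SYP, was higher and 4 (DDC, NCAM1, CHGB and GRP) were lower, where 33.3% of all genes were higher and 24.7% lower. DDC changed by -1.21 (SE 0.0499, limma adjusted p 8.72e-09). Of the 6 other NCAM1 probe sets, 2 were higher and 2 lower. The neuroendocrine counts were 0 higher and 5 lower with poly-A centring and 0 higher and 7 lower with hybridization spikes. Of 10 measured markers of immune, stromal, endothelial and other epithelial cells, 7 were higher and 0 lower with PIK75, beside the same shares of all genes. The 7 were COL1A1, COL1A2, DCN, PECAM1, VWF, SFTPC and SCGB1A1, and PTPRC, CD3D and KRT5 did not pass. Of the 4 other COL1A1 probe sets, 1 was higher and 1 lower. The summed linear values of the 10 markers were 2875 to 2943 with PIK75, 2316 to 2440 with TGX221 and 2382 to 2524 in control. Centred on poly-A spikes 2 of the 10 were higher, and centred on hybridization spikes 0 were higher and 3 lower. Their part in the metallothionein result was not tested.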

How the data were processed

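RNA of 9 samples of H69 cells was labelled and read on 1 Affymetrix 3′ expression array each. The authors deposited 1 log2 value per probe set and array, made with RMA per the submitters' processing notes, which name no version. RMA equalises the distributions of single probe intensities before it summarises them, so changes are relative to the other probe sets. The deposited probe set values were not fully equal in spread, and those of the PIK75 arrays were narrower. Raw files were not used here, and the number of arrays limits the precision.

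Symbols came from the platform annotation. Of 54675 probe sets, 62 Affymetrix controls were left out, 41091 carried 1 symbol, 1801 several and 11721 none. All 54613 others entered limma 3.58.1 in R 4.3.3 (lmFit and eBayes, 3 group means, all 9 arrays, 6 residual degrees of freedom, Benjamini-Hochberg adjustment, called below 0.05). How the fit behaves when errors are shared between probe sets was not tested. An exact test of 3 against 3 cannot go below 0.1. Motifs and tables used Python 3.11.15.

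The genes and lists were chosen with earlier results of these data known. Every probe set of the 10 genes is named. Of each list other than the marker lists, up to 4 called genes with the smallest p are named for PIK75 against control. All called genes of the marker lists are named, as are the 5 genes most like the MT1 and MT2 mean.

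Label numbers are shared in part between groups. Same-numbered arrays did not deviate together throughout (correlations -0.073 to 0.224), and no block was used. The alternatives covered scaling, normalization, dim probe sets, 1 value per gene, samples fitted, spread, actin covariate, replicate block, left-out arrays and suffixes.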

Additional observations from a re-analysis of the deposited data

How the results depend on the processing

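Counts over all probe sets depended on the setting. For PIK75 against control, 27400 were called, against 16203 with poly-A centring, 11947 genes by brightest probe set and 12369 genes by mean. For TGX221 against control, 147 became 927 (poly-A), 886 (hybridization spikes), 84 (cyclic loess), 270 (dim ones left out), 239 (brightest), 30 (mean), 1 (actin covariate) and 0 (only the 2 groups compared), and 0 to 959 with 1 array left out. For PIK75 against TGX221, 20304 became 34963 (hybridization spikes), 9379 (brightest) and 9608 (mean).

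Of the member probe sets, 16 were higher with PIK75 than in control. By brightest or by mean it was 9 of 10 genes, and without _x_at and _s_at probe sets 5 of 7. Against TGX221, 12 were higher, 7 of 10 by brightest and 3 of 7 without those suffixes, where fewer probe sets enter by construction. With the replicate number as a block, where TGX221 array 2 drops out, the member counts stayed 16, 0 and 12, and all called were 25970 (PIK75 against control), 0 (TGX221 against control) and 16344 (PIK75 against TGX221).

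All reversals came with hybridization spikes. Within a comparison, that centring shifts every probe set's change by the same amount, so small rises with PIK75 turn negative. The median of all probe sets went from 0.084 to -0.268 against control. Against TGX221 it went from 0.061 to -0.226. Why the spikes read higher on the PIK75 arrays was not tested. Against control, PIK75 gave MT1G 210472_at -0.22 (limma adjusted p 0.0119), MT1M -0.16, MTF1 205323_s_at -0.014, SLC30A1 242716_at -0.053, MT4 -0.18 and ZBTB16 -0.049. Against TGX221 it gave MT1G 210472_at -0.27, MT1M -0.24, MT3 -0.21 and SLC30A1 242716_at -0.21, all 4 past the threshold. Of 315 member values per comparison, 299 (PIK75 against control), 315 (TGX221 against control) and 303 (PIK75 against TGX221) kept direction and call, where a sign change of a value that never passed counts as kept.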
